A study of Mus musculus with 8 samples.

Results

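The baseline transcriptome of mouse intestinal stem cells, sorted as Lgr5-high by their EGFP reporter, was described from the 4 control arrays of a series of 8 arrays. The members were chosen by their group label, control, and their measured genes were followed across these 4 samples. The other 4 arrays, labelled Irf2_AhcKO, served as a separate set of samples. Controls had the genotype Irf2fl/fl with the Lgr5-EGFP-Ires-CreERT2 allele. Irf2_AhcKO mice carried in addition Ah-Cre, a recombinase under a promoter that β-naphthoflavone switches on. All mice, controls included, received β-naphthoflavone for 5 days and were sampled 1 month later, and all carried the same knock-in at Lgr5, which uses the endogenous promoter of the gene. The ages of the mice are not stated in the labels. The scanner data of control replicates 3 and 4 are named with Ah-Cre although their labels give none, so whether these controls carried the recombinase is not settled. The design text speaks of 4 independent mice and also of 2 biological replicates, so any p-value here measures the spread between these samples, part of which may be technical.

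Lgr5 is a receptor for R-spondins and marks the dividing columnar cells at the base of the intestinal crypt. These cells are kept by Wnt signals, by Notch contact with neighbouring Paneth cells and by EGF, while BMP signals from the villus side favour differentiation. Their daughters become absorptive enterocytes or secretory cells, which are goblet, Paneth, enteroendocrine and tuft cells.

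Each array was a 1-colour Agilent array with 62976 spots. Control replicates 1 and 2 lay on slide 1 and replicates 3 and 4 on slide 2, each slide with the same-numbered Irf2_AhcKO arrays. Between 61.4% and 69.8% of the non-control spots on the control arrays were well above background, and none was saturated. Well above background means that the scanner software found the signal clearly over the local background. The number of arrays limits the precision. Levels below are log2 signals relative to the array's 75th percentile, for the brightest probe of each gene. They order probes by hybridisation signal, not transcripts by abundance. Control arrays of the same slide correlated at 0.987 and 0.986 and arrays of different slides at 0.968 to 0.976.

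Of 21368 named genes, 13793 (64.6%) were well above background on all 4 control arrays, 2860 (13.4%) on some of them and 4715 (22.1%) on none. Of the genes seen on all 4 control arrays, 13465 were also seen on all 4 Irf2_AhcKO arrays, and 10 on none of those. The reverse, no control array but all 4 Irf2_AhcKO arrays, held for 8 genes. Olfactory receptors, odour receptors of the nasal epithelium that the intestine is not known to use as a class, served as a reference for low signal. Their median level was -5.85, 149 of 1066 (14.0%) were well above background on all 4 arrays, and 95% lay below -2.10. The call of well above background is therefore met by some genes of very low signal, and the count of named genes over that olfactory level was 11313 (52.9%). The brightest of the family were Olfr187 at 3.67 and Olfr1410 at 3.65. The median of all named genes was -1.74, and the median SD over the control arrays among genes seen on all 4 was 0.239.

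**Figure D1:**
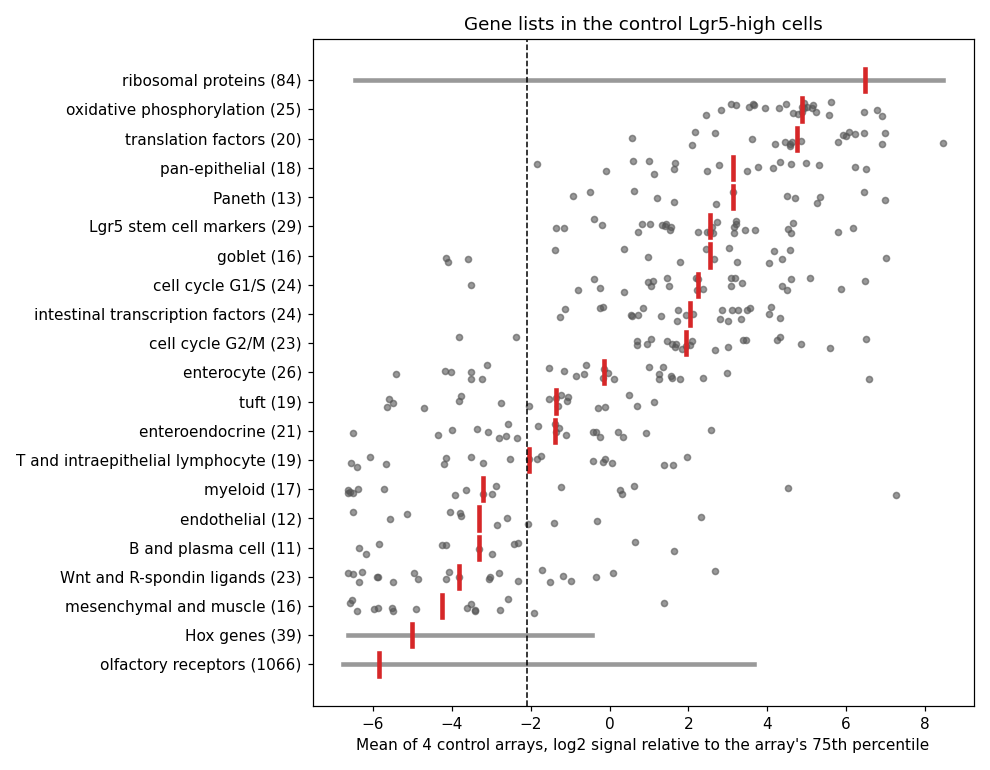
Mean level of list members over the 4 control arrays (x axis, log2 relative to the array's 75th percentile), with the number measured in brackets. Grey points are genes, grey bars the range of the 3 lists defined by name pattern, red marks the medians and the dashed line the olfactory 95th percentile at -2.10; all points of the stem cell, oxidative phosphorylation and intestinal transcription factor lists lie to its right.

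The labelled cell type was checked against its markers, and all that were measured were detected. All 29 measured genes of the stem cell list were well above background on all 4 control arrays, against 64.6% of all named genes, and their median level was 2.55. All 29 also lay over the olfactory level, even when the dimmest probe of each gene was taken. Lgr5 itself read 2.97, 2.99, 3.46 and 3.25 in replicates 1 to 4. Its slide 2 values were both higher than its slide 1 values. Smoc2, a secreted matricellular protein of these cells, read 3.38, 3.48, 3.57 and 3.30, with the slides overlapping. Ascl2, a Wnt-driven transcription factor that maintains stem cell identity, read 1.54, 1.97, 1.13 and 1.11, lower on both slide 2 arrays. Olfm4, another common marker, was not analysed here.

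The highest signals of the list came from Cd44, a hyaluronan receptor and Wnt target, at 6.18 ± 0.26 (SD, n = 4), and from Slc12a2, a chloride cotransporter of crypt cells, at 5.78 ± 0.11 (SD, n = 4). Cdca7 at 4.66, Prom1 at 4.61 and Gkn3 at 4.53 followed. Axin2, the classical feedback target of Wnt signalling, was at 3.69, Sox9 at 3.22, Ephb2 at 3.21 and Lrig1, an inhibitor of ErbB receptors, at 3.15. Nrn1 was at 2.72, Aqp4 at 2.63, Clca3b at 2.59, Fstl1 at 2.55, Rnf43 at 2.48 and Arid5b at 2.25. Slc14a1 at 1.56, Tnfrsf19 at 1.52, Msi1 at 1.40, Rgmb at 1.32, Soat1 at 1.02, Igfbp4 at 0.82 and Scn2b at 0.71 were lower. The dimmest were Sp5 at -0.18, Cdk6 at -0.38, Tnfrsf21 at -1.16 and Znrf3 at -1.35. Rnf43 and Znrf3 are ubiquitin ligases that remove Wnt receptors from the cell surface.

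SDs of the stem cell markers ran from 0.0889 for Igfbp4 to 0.705 for Znrf3, with a median of 0.237. That was close to the 0.239 of all genes seen on all 4 arrays, a set not matched to the markers by level. Znrf3 was the only marker with an SD over 0.5, and it split by slide, at -0.68 and -0.81 on slide 1 and -1.95 and -1.97 on slide 2. Of the 29 markers, 15 were highest on replicate 3 and 12 lowest on replicate 4, ranks not counted over all named genes. On slide 2, 24 of 29 were lower on replicate 4 than on replicate 3, with a median difference of -0.16, where 60.8% of all named genes were lower and their median difference was -0.05. In the Irf2_AhcKO arrays of slide 2, 26 of 29 were lower on replicate 4, with a median of -0.16. Of all named genes, 56.3% were lower there. Sp5, a Wnt-induced transcription factor, had the largest within-slide difference, from -0.75 to 0.28 on slide 1.

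**Figure D2:**
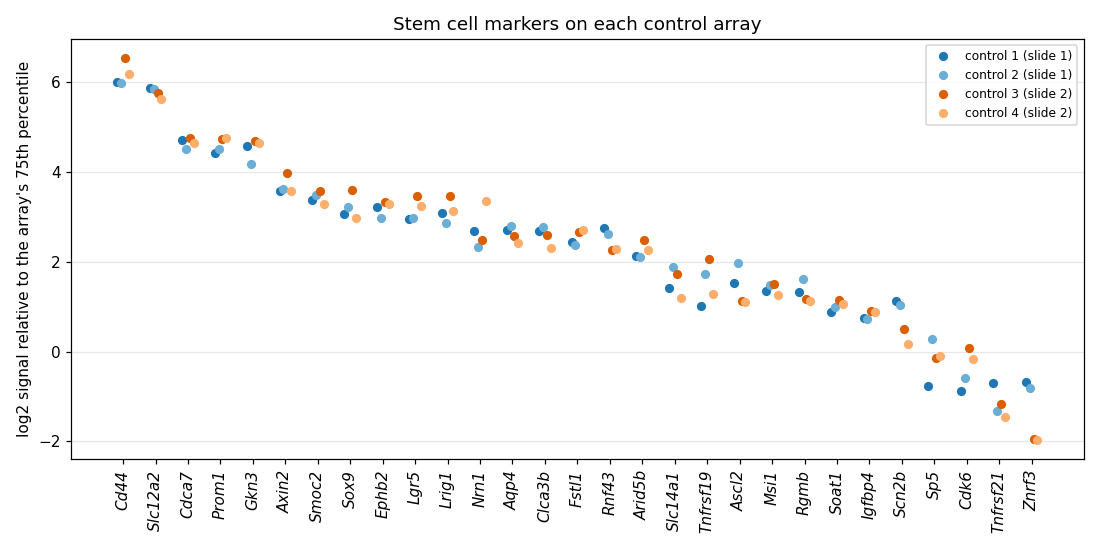
Level of each measured stem cell marker on the 4 control arrays (y axis, log2 relative to the array's 75th percentile; blue, slide 1; orange, slide 2). Points of a gene lie close together beside the range from Cd44 (mean 6.18) to Znrf3 (mean -1.35), and Znrf3 separates by slide.

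Markers of reserve or regenerating cells were mixed. Of 12 measured, 9 were well above background on all 4 control arrays, with a median of -1.90. Hopx, a homeodomain protein linked to slow-cycling cells, was highest at 3.32 ± 0.21 (SD, n = 4), and Mex3a was at 0.72 and Bmi1, a Polycomb protein, at 0.62. Clu, which marks revival stem cells after injury, read -0.76, -1.85, -1.87 and -2.71, and Ly6a, a marker of fetal-like repair, was at -2.33. Ereg and Il33 were above background by this call on none of the control arrays. Anxa1, an annexin induced in wounded epithelium, was well above background on replicate 3 only.

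Wnt pathway genes that receive the signal were detected more widely than those that send it, as counts without a test. Of 26 receptors, co-receptors and effectors, 21 were well above background on all 4 control arrays and their median was 0.18. Ctnnb1, encoding β-catenin, was brightest at 6.17, followed by Lgr4 (3.04), the sister receptor of Lgr5, Axin1 (2.92), Tcf7l2 (2.88), the main nuclear partner of β-catenin in the gut, Myc (2.68) and the co-receptor Lrp5 (2.45). Lrp5 varied little over the arrays, at 2.46, 2.43, 2.46 and 2.45. Tcf7l2 rested on the brightest of 3 probes, the dimmest of which was at -5.10. The receptors Fzd3 and Fzd10 and the repressor Tcf7l1 were not well above background on any array. Lef1, a further partner of β-catenin, was detected on replicates 1 and 3 only, and was at least 3.01-fold lower on replicate 4 than on replicate 3.

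Of 23 Wnt and R-spondin ligands, 11 were well above background on all 4 arrays and the median was -3.82. Wnt5a, a ligand of the β-catenin-independent branch, was brightest at 2.67. Wnt3, the ligand made by Paneth cells, was at -1.18. Wnt2, Wnt8a, Wnt9a and Rspo1 were not well above background on any array, nor were Rspo2, Rspo3 and Rspo4. R-spondins come mainly from stromal cells.

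The Notch list had 16 of 20 genes well above background on all 4 arrays. The receptor Notch2 was brightest at 3.62, on the brighter of 2 probes, and Notch1, the receptor best known in crypt cells, was at 0.18. The targets Hes1 (2.51) and Hes5 (2.06) and the feedback regulator Nrarp (1.33) were detected, as was the ligand Dll1 (1.52), while the targets Hey2 and Heyl were not well above background on any array. Hey1, another target, was detected on replicates 1 and 3 only, and was at least 3.51-fold lower on replicate 2 than on replicate 1.

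Of 15 EGF family genes, 7 were well above background on all 4 arrays, a smaller share than the 64.6% of all named genes, with no test. Among receptors Erbb3 was at 2.20, Egfr at 1.54 and Erbb2 at 0.52, and Erbb4 was not well above background on any array. The ligand Hbegf, which is induced as an early response gene, read 2.96, 2.79, 4.28 and 2.04. Areg was at -0.83 and Nrg4 at -1.81, and Ereg, Epgn and Nrg3 were not well above background on any array. Nrg1 was detected on replicates 1 and 4 only.

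BMP and TGF-beta receptors and SMADs were well above background on all 4 arrays for 18 of 21 genes, with a median of 0.44. The shared mediator Smad4 (4.25) and Smad1 (3.68), which carries BMP signals, were brightest, and the BMP receptor Bmpr1a was at 2.03 and the BMP target Id1 at 1.95. Bmpr1b was not well above background on any array. Of 17 BMP ligands and antagonists, 9 were seen on all 4 arrays, with a median of -3.48. Bmp8a was brightest at 3.02. The ligand Bmp5 and the antagonists Grem1 and Fst were not well above background on any array.

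Eph receptors and ephrins, which sort cells along the crypt axis, were seen on all 4 arrays for 17 of 21 genes. Ephb3 was brightest at 9.21 ± 0.02 (SD, n = 4), and its partner in crypt sorting Ephb2 was at 3.21 and Ephb4 at 3.93. The ligand Efnb1 was at 0.75. Epha5 at 9.10 rested on 1 of 2 probes, the other being at -4.06. Epha3, Ephb1 and Efna5 were not well above background on any array.

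All 24 intestinal transcription factors were well above background on all 4 arrays, with a median of 2.03. The ETS factors Elf3 (4.31), Ets2 (4.05) and Ehf (3.48), the nuclear receptor Hnf4a (4.11), the homeobox factor Cdx1 (3.56) and the forkhead factor Foxa2 (3.34) led the list. Foxa3 had the largest within-slide difference, -1.32 on slide 2. Of 14 regulators of secretory fate, 12 were well above background on all 4 arrays, with a median of -0.91. Xbp1, which builds secretory capacity, was at 3.29, Atoh1, the master regulator of secretory fate, at 0.25 and Neurog3, required for enteroendocrine cells, at -0.22. Creb3l1 was at 1.24 and Creb3l4 at -0.31. The endocrine subtype factor Pax4 was not well above background on any array.

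Regional genes of several gut segments were detected. Gata4, a factor of duodenum and jejunum, was at 3.01, Onecut2 at 2.06 and the duodenal factor Pdx1 at 1.58. Fabp6, an ileal bile acid carrier, was at 0.62. Hoxb13, the ileal bile acid transporter Slc10a2, Cubn and the foregut factor Sox2 were not well above background on any array. Of 39 Hox genes, 10 were seen on all 4 arrays, with a median of -5.00. Their brightest members were Hoxa7 at -0.44, Hoxc5 at -0.70 and Hoxa13 at -1.08. The region of the intestine sampled is not given in the labels.

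Proliferation genes were broadly detected. All 24 genes of the G1/S list were well above background on all 4 arrays, with a median of 2.23, led by the replicative helicase subunits Mcm6 (6.47), Mcm7 (5.86) and Mcm4 (5.09), Uhrf1 (4.60), Cdk4 (4.51) and the clamp Pcna (4.38). Of 23 G2/M genes, 22 were seen on all 4 arrays, with a median of 1.94, led by Hmgb2 (6.51), Birc5 (5.59), Mki67 (4.87), Tacc3 (4.33), Ube2c (4.26) and Aurka (3.47). The median within-slide difference of the G2/M list was -0.38 on slide 1 and -0.06 on slide 2, with no gene over 1 on either slide. Among inhibitors, Cdkn1b was at 2.70, Trp53 at 2.64, Cdkn2d at 2.45 and Cdkn2c at 2.10. Cdkn2a, which rises in senescent cells, was not well above background on any array.

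Ribosomal protein, oxidative phosphorylation and translation genes had list medians over 4. Of 84 ribosomal protein genes, 82 were well above background on all 4 arrays, with a median of 6.49. The exceptions were Rpl3l, a form of striated muscle, at -6.45, and Rpl39l, a form of the testis, at -6.36. All 25 oxidative phosphorylation genes were seen on all 4 arrays (median 4.88, lowest 2.45), led by Atp5a1 at 6.90, Cox4i1 at 6.78 and Uqcrb at 6.46. The largest within-slide difference of that list was 0.19, for Atp5o. All 20 translation factors were seen, with a median of 4.75 and Tpt1 at 8.47. Glycolysis had 23 of 24 genes on all 4 arrays and a median of 2.29, led by Pgam1 (6.41), Gapdh (6.29) and Ldha (5.97). Fatty acid oxidation had 22 of 24 and a median of 1.55, led by Acaa1a (5.11), Acaa2 (4.29) and the rate-limiting carnitine transferase Cpt1a (4.22), and the fatty acid uptake gene Cd36 was not well above background on any array. Cholesterol synthesis had 20 of 20 and a median of 0.82, led by Idi1 at 5.58.

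Other stress and regulatory groups were as broad. All 18 genes of the unfolded protein response were seen on all 4 arrays (median 2.12), with Atf4 at 6.64, Hsp90b1 at 5.75 and Hspa5 at 4.80. Of 16 p53 targets 14 were seen, with Perp at 4.26 and Bax at 3.94, and the death receptor Fas was not well above background on any array. Of 22 epigenetic regulators 21 were seen, led by the Polycomb subunit Eed at 3.23 and Hdac1 at 2.93. RNA-binding proteins were split. Zfp36l2 was at 6.01, Msi2 at 4.10 and Elavl1 at 3.50, while the oncofetal genes Lin28b and Igf2bp1 were not well above background on any array.

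Markers of differentiated epithelial cells were present beside the stem cell markers. In these bulk samples a higher signal from more cells of a type cannot be told apart from more RNA per cell. All 18 pan-epithelial genes were seen on all 4 arrays, with a median of 3.13, led by Lgals4 (6.50), Epcam (6.24), Krt18 (5.32) and Krt19 (4.98). All 13 measured Paneth genes were seen, also with a median of 3.13. They included the antimicrobial defensins Defa3 (6.99), Defa38 (6.47) and Defa21 (5.33), the lectin Itln1 (5.26) and lysozyme Lyz1 (4.51). Defensin genes are near-identical copies, so their probes may share signal. The summed Paneth list read higher on slide 2, with list means of 3.57 and 3.22 there and 2.94 and 2.93 on slide 1.

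Goblet genes were seen on all 4 arrays for 14 of 16, with a median of 2.56. The mucus protein Fcgbp was brightest at 7.01, followed by Spink4 (4.57), Guca2a (4.37), Clca1 (4.18) and Zg16 (4.05), and Muc2, the main gel-forming mucin, was at 0.98. Retnlb, an inducible goblet peptide, was detected on replicates 1 and 4 only, and was at least 6.96-fold higher on replicate 4 than on replicate 3. Enterocyte genes had a median of -0.15, with 22 of 26 on all 4 arrays. Fabp2, an intracellular fatty acid carrier, stood at 6.57, and the digestive enzymes Mgam at 2.97 and Dpp4 at 1.79. Alpi, a marker of mature enterocytes, was at -0.85 and Lct at -3.50. Enteroendocrine genes had a median of -1.38 and tuft genes one of -1.36. The granule protein Chgb (2.58) and the hormone Ghrl (0.92) led the first, and Ltc4s (1.13), Dclk1 (0.71) and the channel Trpm5 (0.50) the second. M cell genes had a median of -1.94. Gp2 and Ccl20, both members of that list, were not well above background on any array. The part of differentiated cells in the stem cell values was not tested.

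Lists of cells outside the epithelium were detected to different extents. T and intraepithelial lymphocyte genes were well above background on all 4 arrays for 13 of 19, and 10 of 19 lay over the olfactory level, shares near those of all named genes (64.6% and 52.9%). Their median was -2.05, with Cd3e at -0.41 and Ptprc, the pan-leukocyte gene, at -1.74, while Cd3d, Cd3g, Xcl1 and Klrd1 were on no array. B and plasma cell genes were seen on all 4 arrays for 6 of 11 (2 over the olfactory level, median -3.32), with Ms4a1, Jchain and Tnfrsf17 on no array. Myeloid genes were seen for 9 of 17 (6 over, median -3.22), with Itgax, C1qc, Mrc1 and S100a8 on no array. Mesenchymal and muscle genes were seen for 6 of 16 (2 over, median -4.26), with Col1a1, Col6a1, Pdgfra and Dcn on no array. Endothelial genes were seen for 7 of 12 (4 over, median -3.31), with Cdh5 and Emcn on no array.

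Red blood cell genes were seen on all 4 arrays for 3 of 7 (1 over the olfactory level, median -3.72), nerve and glia genes for 6 of 12 (4 over, median -4.07) and pancreatic acinar genes for 6 of 13 (3 over, median -3.97). Liver genes were seen for 6 of 12, and 6 lay over the olfactory level, with a median of -2.72. In that list Alb, Fgb, Fga and F2 were on no array, while Cps1, a urea cycle enzyme that gut epithelium also makes, was at 6.40. Among olfactory receptors 14.0% were seen on all 4 arrays. The part of these cells in the stem cell values was not tested.

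Some members of these lists were bright on 1 probe and dim on another. Itgam, an integrin of myeloid cells, read 7.27 by its brightest probe and -2.98 by its dimmest. The values were 4.52 and -5.59 for Csf1r, 2.31 and -6.52 for Kdr, 1.97 and -5.72 for Nkg7 and 6.06 and -6.40 for Elavl4. Nanog, a gene of pluripotent cells, read 8.29 and -6.37, while the pluripotency genes Dppa3, Dppa5a, Dazl and Ddx4 were on no array. Snap25, a synaptic protein, was at 6.55 by its only probe.

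Genes of interferon and innate sensing describe the state in which Irf2, the deleted gene, acts. Irf2 itself was at 0.64 ± 0.26 (SD, n = 4) in controls. Of 30 interferon pathway genes, 26 were well above background on all 4 arrays, with a median of 0.06, among them Ifitm3 (6.56), Ifitm2 (4.75), Ifngr2 (4.20), Irf1 (3.16) and Ifi27 (2.82). Ifit1, a target induced strongly by type I interferon, was above background by this call on none of the control arrays. Ifit3, another such target, was detected on the 2 arrays of slide 2 only. The receptor chains Ifngr1, Ifnar1, Ifnar2 and Ifnlr1 read 2.18, -0.41, 0.01 and -1.52.

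Of 29 sensors, 23 were seen on all 4 arrays. Naip5, which detects flagellin inside the cell, was brightest at 7.20, and Nlrp6 was at 2.83, Tlr9 at 2.84 and Nlrc4 at 1.55. Tlr3, Tlr4, Tlr6 and Tlr8 were on no array. Of 21 cytokine receptors 13 were seen on all 4 arrays, with Il15ra at 8.17 on 1 of its 2 probes and -0.83 on the other, Il4ra at 4.13 and Il17ra at 2.05. The β-naphthoflavone that all mice received is a ligand of the aryl hydrocarbon receptor. Ahr was at -0.99, and its induced targets Cyp1a1, Cyp1a2, Cyp1b1 and Ahrr were above background by this call on none of the control arrays 1 month after treatment.

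The 30 brightest genes lay between 9.10 and 9.71, and their largest SD was 0.194. The order began with Sp110, an interferon-linked nuclear body protein, at 9.71, the kinase Pak4 at 9.67, the lysosomal sulfamidase Sgsh at 9.61, Septin3 at 9.60 and Cep170b at 9.59. Further down came Arl6ip6, Zcchc9, Ldlrad3, Madd, Hemgn, a gene of blood progenitors, Spag7, Timmdc1, Ms4a4c, Neurl1b and Mms22l. The remainder were Ubtf, Eya1, Tmem239, Ung, Srek1, Ephb3, Skint7, Creb5, Ccdc138, Slc10a1, Plekhg3, Sema4c, Serpinb8, Atxn7 and Epha5. Of the 30, 28 were also among the 30 brightest of the Irf2_AhcKO arrays. None was a ribosomal protein gene, and Ephb3 and Epha5 were the only ones in a signalling list.

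Most of these ranks rested on 1 probe. For 13 genes the array held 1 named probe, and for 17 it held more. In all 17 the dimmest probe was at least 3 lower, with a median gap of 12.2, and in 9 the dimmest probe was at or below the olfactory level. Sp110 probes read 9.71, -1.93 and -3.34, Septin3 probes 9.60 and -6.66, and Ms4a4c probes 9.35, -5.08 and -6.44. Over all 5754 genes with more than 1 probe the median gap was 1.85, and it exceeded 3 in 1823 (31.7%). Which probe measures its transcript was not tested.

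**Figure D3:**
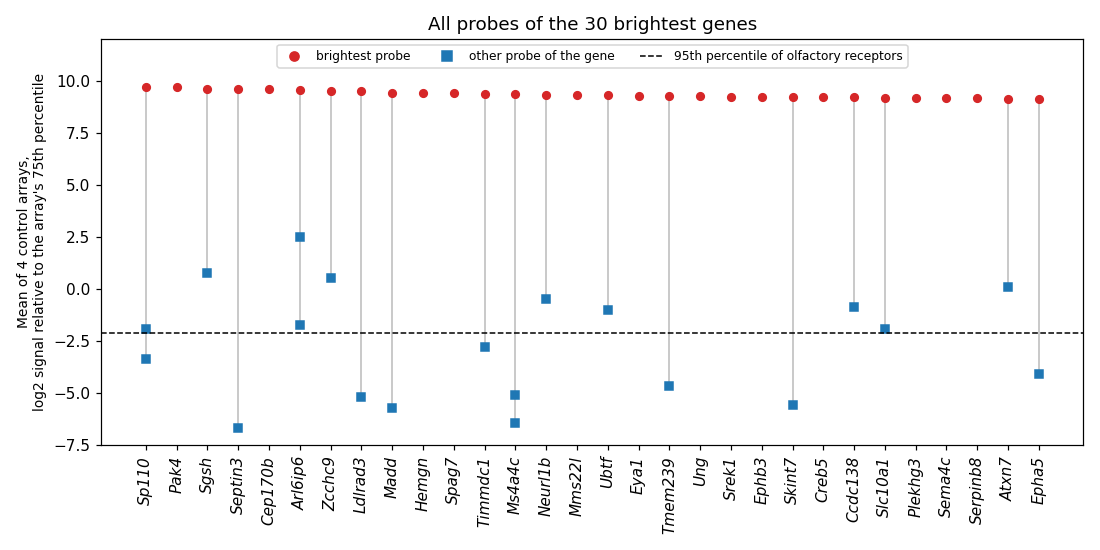
Every named probe of the 30 brightest genes, as the mean over the 4 control arrays (y axis, log2 relative to the array's 75th percentile). Red circles are the brightest probes, blue squares the other probes of the gene and the dashed line the olfactory 95th percentile; blue squares lie far below the red circle in all 17 genes that have them.

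A ranking that needs every probe of a gene to be bright gave another set. It was chosen after the data were seen and covers the 5754 genes with more than 1 probe, each by its dimmest probe. Its 30 leading genes ran from Rps12 at 7.54 to Lgals4 at 5.71, and 0 of them were among the 30 above. Ribosomal protein genes made up 15, among them Rpl29, Rpl38, Rpl36a and Rpl10. Defensin genes of Paneth cells made up 4, namely Defa23, Defa42, Defa2 and Defa3. The set further held Tpt1 (6.66), Stmn1 (6.26), a tubulin regulator of dividing cells, Hspa8 (5.72) and the ATP synthase subunit Atp5h (6.24). The brightest probe of Defa2 read 6.56, 6.10, 7.72 and 7.02, with both slide 2 values above both slide 1 values.

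Within slide 1 the 2 control arrays differed little for most genes. Among 15071 genes well above background on both, the median absolute difference was 0.185, and 356 (2.36%) differed by over 1, 184 higher and 172 lower on replicate 2. With 1 array on each side these differences have no test. They were most frequent at low signal. Of 4 bins by level, cut once over the genes of both slides, the dimmest held 213 among 3635 genes and the brightest 10 among 3812. Of the 356, 189 (53.1%) had the same sign between the Irf2_AhcKO arrays of the slide, against 52.7% of all genes compared, and 30 exceeded 1 there in the same direction.

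The largest increase was that of Ptger1, a receptor for prostaglandin E2, which read -1.86 on replicate 1, 3.28 on replicate 2 and between -1.65 and -2.54 on the other 6 arrays. Replicate 2 alone was high. Myl2, a muscle light chain, was likewise higher on replicate 2 only, at -1.26 against -4.28. Among the 15 leading increases, replicate 1 was the array farthest from the other 7 in 11 genes, and replicate 2 in 4. Krtap10-10 read -2.03 on replicate 1 and 1.09 on replicate 2, Apol9a -1.09, 1.31, 1.08 and 1.17, and Xntrpc -1.15, 0.99, 1.07 and 1.18. In these 3 genes replicate 1 was low and the other control arrays lay near one another. Second probes of Apol9a and Xntrpc differed by -0.41 and -0.44 instead. Sema6a (3.23), Lhx1 (2.64), Cd37 (2.57), Pomc (2.53), Foxs1 (2.34), Cdcp2 (2.23), Prl3b1 (2.20), Dlx3 (2.19), Cetn1 (2.12) and Gzma (2.01), a granzyme of cytotoxic lymphocytes, completed the increases. Slc25a34 at 1.99 was just outside.

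Among the 15 leading decreases on slide 1, replicate 1 was again the farthest array in 11. Olfr272 fell by 3.21, from -0.31 to -3.52. Col3a1, a collagen of connective tissue, read -0.87, -3.51, -4.58 and -4.72, high on replicate 1 alone. Efnb3 read -1.28, -3.98, -2.30 and -3.29, and the tetraspanin Tspan18 -0.19, -3.11, -3.07 and -3.97. The difference was at least 44.1-fold for Ascl4, which was well above background on replicate 1 only, at 0.95, and lay between -5.21 and -5.84 on the other controls. Such a bound sets the bright array against the lowest signal well above background on the dim array, or the dim probe's own signal if higher. Bounds for Olfr108 and Prl3d1 were 19.8-fold and 16.6-fold. The smallest named decrease was that of Olfr574 (-1.95), and Cd300ld4 at -1.93 was just outside. Of the 30 named slide 1 genes, 0 increases and 3 decreases (Crybb1, Wfdc10 and Rcn1) exceeded 1 in the same direction in Irf2_AhcKO.

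Within slide 2, 13979 genes were compared, the median absolute difference was 0.179, and 288 (2.06%) differed by over 1, 124 higher and 164 lower on replicate 4. Of the same 4 bins by level, the dimmest held 156 among 2545 genes and the brightest 29 among 3812. Of the 288, 199 (69.1%) had the same sign between the Irf2_AhcKO arrays of the slide, against 61.5% of all genes compared, and 42 exceeded 1 there in the same direction. The correlation with the Irf2_AhcKO difference across genes was 0.29 on slide 2 and 0.06 on slide 1. Genes are not independent replicates, and these values carry no p. Genes that passed 1 on both slides numbered 21, which is 5.90% of the slide 1 set and 7.29% of the slide 2 set.

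Among the 15 leading increases on slide 2, control replicate 4 was the array farthest from the other 7 in 9 genes and Irf2_AhcKO replicate 4 in 3. Sis, the brush border sucrase-isomaltase, read -1.74, -1.66, -0.79 and 10.42 in controls and -2.43, -2.54, -1.56 and -2.62 in Irf2_AhcKO. It has 1 probe. The median difference of the enterocyte list was -0.15. Cds2 and Vmn2r65 were also higher on control replicate 4 only, by 3.35 and 2.30, against -0.67 and -0.04 in Irf2_AhcKO. With normexp background correction these differences were 0.79 and 1.16.

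Of the 15 leading increases, 12 had the same sign and 10 exceeded 1 in Irf2_AhcKO. Xist, the RNA that coats the inactive X chromosome, read -3.55, -4.03, -3.93 and 5.83 in controls, and differed by 10.05 in Irf2_AhcKO. Its activator Jpx differed by 1.90 and 1.07. The Y-linked genes Ddx3y, Eif2s3y, Uty and Kdm5d were all lowest on control replicate 4. Ddx3y read -0.41, -0.14, -0.14 and -6.35, at least 29.1-fold lower on replicate 4, and Eif2s3y was at least 46.4-fold lower. Kdm5c (0.90), Eif2s3x (5.26), Ddx3x (3.18) and Kdm6a (-3.82), X-linked genes that partly escape inactivation, differed on slide 2 by 0.20, 0.16, 0.10 and 0.70. Replicate 4 of each group thus carried the Xist signal and lacked the Y-linked signal, so sex and individual cannot be told apart on slide 2.

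Some shared increases came from elsewhere in the genome. Was, an actin regulator of blood cells, lies on the X chromosome, as do Jpx and Xlr3b, while Dhx36, Kcnc4, Klhl1, Rhov and Sema4b are autosomal. Was read -2.35, -2.39, -2.41 and 3.43 in controls and -2.02, -2.01, -1.99 and 3.28 in Irf2_AhcKO. Dhx36, a helicase that unwinds G-quadruplexes, read -0.69, -0.51, -0.42 and 3.05. The potassium channel Kcnc4 (2.94 in controls, 2.95 in Irf2_AhcKO), Klhl1 (2.92 and 2.65), the small GTPase Rhov (2.46 and 2.52) and the semaphorin Sema4b (2.00 and 2.12) behaved alike. In each of these the values on replicate 4 of both groups lay above all others of the 8 arrays. Musk, a kinase of the neuromuscular junction, was well above background on control replicate 4 only among controls, at least 12.9-fold higher, and read -0.65 on Irf2_AhcKO replicate 4. Reg3b, an antimicrobial lectin induced by microbes, read -0.16, 0.67, 1.31 and 3.94 in controls and 2.12, 1.90, 2.46 and 4.83 in Irf2_AhcKO. Pdk4 (2.16), Wfdc16 (2.10) and Xlr3b (1.91) completed the increases, with Chrne at 1.90 just outside. Xlr3b read 1.13, 1.26, -1.30 and 0.61, so that replicate 3 was low and replicate 4 not high.

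Among the decreases, Tmem41b was at 6.55 on replicate 3 and between -0.80 and -1.71 on the other 7 arrays. Cdc42, a small GTPase that sets cell polarity, read 5.04, 4.93, 8.01 and 5.06, while its second probe differed by 0.08. Olfr1425 and C230057A21Rik were well above background on replicate 3 alone, at least 177-fold and 127-fold higher than on replicate 4. Each was seen on 1 of the 4 control arrays.

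The remaining named decreases were the following. Mt2, a metallothionein induced by metals and glucocorticoids, read 3.56, 4.88, 4.61 and 2.07. Hbegf, Dusp6 (a phosphatase induced by ERK signalling), Epha2, Phlda1 and Phlda2 fell by 2.24, 2.15, 2.30, 2.00 and 1.95 from replicate 3 to replicate 4. The heat shock genes Hspa1a and Dnaja4 fell by 2.09 and 2.04, and by 2.12 and 2.38 in Irf2_AhcKO. Zbtb25 (-2.34), Chil3 (-2.17), Tom1 (-2.02), Kcnf1 and Dennd4a (-1.98) completed the named genes.

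**Figure D4:**
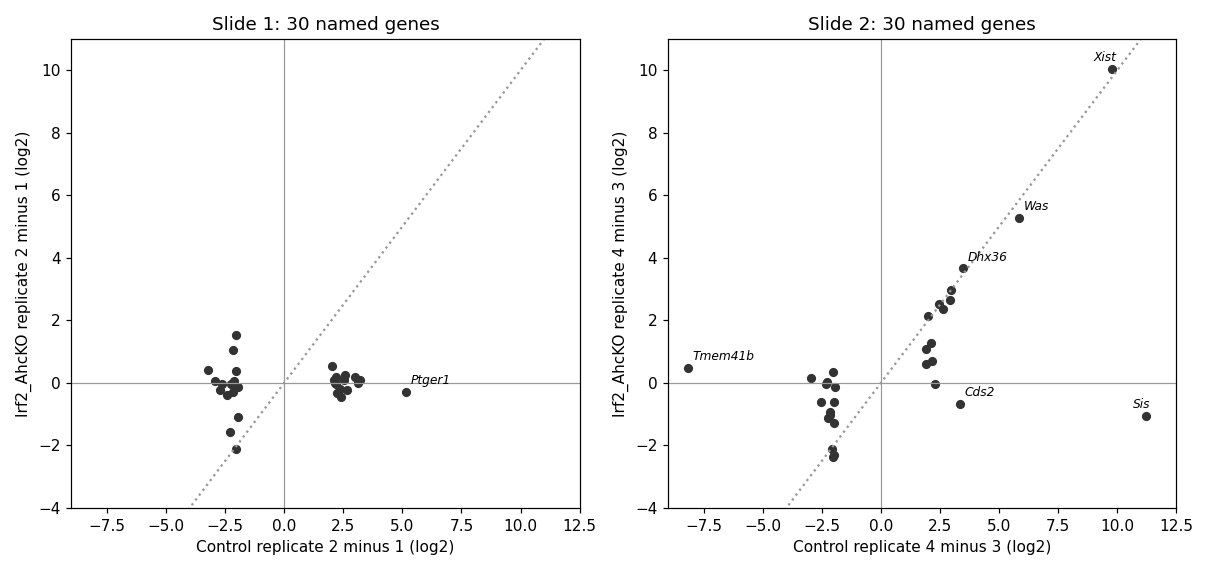
Within-slide log2 difference of the 30 named genes of each slide between control arrays (x axis) and between the Irf2_AhcKO arrays of that slide (y axis), with equality dotted. Slide 1 points lie near 0 on the y axis except for 5 with values over 1 in size, whereas Xist, Was and Dhx36 of slide 2 lie near the dotted line and Sis, Cds2 and Tmem41b do not.

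The list of immediate early and dissociation genes, transcription factors and chaperones that rise within minutes of growth factor or mechanical stimuli and of tissue dissociation, was followed over all arrays. Of 17 measured, 16 were well above background on all 4 control arrays, with a median of 3.04. Egr1 (7.02), the co-chaperone Dnajb1 (6.67), Fosb (5.60), Jund (5.28), Hsp90aa1 (4.52) and Zfp36 (4.43) were brightest. All 17 were lower on replicate 4 than on replicate 3, against 60.8% of all named genes. Their median difference was -1.18, with 13 over 1 in size. Of the 16 detected on both arrays, 12 were lower by over 1, against 2.06% of all genes detected on both that differed by over 1 in either direction. Replicate 4 was the lowest control array in 15 of 17 and replicate 3 the highest in 13, ranks not counted over all named genes.

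Fosb, a subunit of the AP-1 factor, read 6.02, 5.26, 6.51 and 4.60. Atf3, a stress-induced bZIP factor, read 1.75, 1.47, 1.91 and 0.10. Egr1 read 7.52 on replicate 3 and 6.25 on replicate 4, with the slide 1 arrays between them. Zfp36, which destabilises AU-rich mRNAs, read 4.61, 4.33, 5.10 and 3.68. In these 4 genes replicate 4 was the lowest control array and replicate 3 the highest. Hspa1a, the inducible Hsp70, read 1.78, 2.19, 2.38 and 0.29, and has a near-identical copy, Hspa1b, that its probe may also detect. On slide 1, 0 of the 17 differed by over 1 and the median was -0.32. In the Irf2_AhcKO arrays of slide 2, 16 of 17 were lower on replicate 4, with a median of -0.38. Of all named genes, 56.3% were lower there. The time from tissue to lysis is not stated in the labels, and its part in these values was not tested.

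**Figure D5:**
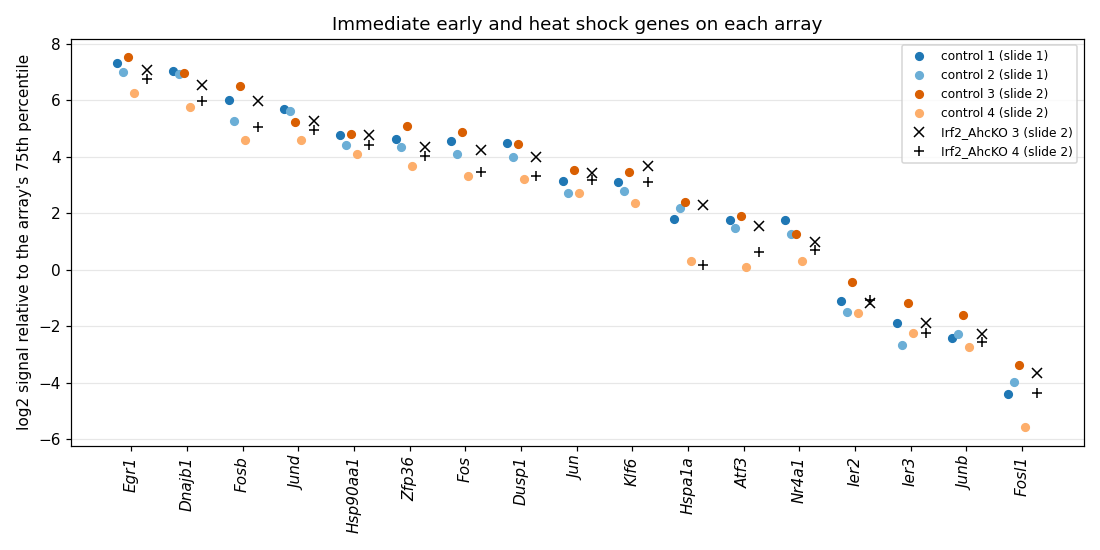
Level of the 17 immediate early and dissociation genes on the 4 control arrays (y axis, log2 relative to the array's 75th percentile; blue, slide 1; orange, slide 2) and on Irf2_AhcKO replicates 3 (cross) and 4 (plus). Control replicate 4 (light orange) is the lowest control point in 15 genes and lies below replicate 3 in all 17.

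Start-site sequences were available for 13 of these genes in the RefSeq table (GRCm38.p6), and the 250 bases before each start were searched on both strands. The heat shock unit GAANNTTC was found in Hspa1a and Jun, against 6.69% of 32851 windows of all genes, and the reverse unit TTCNNGAA in none of the 13, against 7.17%. The cyclic AMP response element TGACGTCA was found in Dusp1 (1.55% of all windows), the TATA letters TATAAA in Fos (12.4%) and the CArG box, which serum response factor binds, in Zfp36 (1.47%). These motifs do not overlap one another in the windows shown. Whether the genes of the list share regulatory elements was not tested. The window of Fos is not shown. The 4 windows below were picked because each holds a match, and they carry the matches in capitals. They are chr17:34972157-34972406, chr4:95052223-95052472, chr17:26508473-26508722 and chr7:28379229-28379478, all on the minus strand and written 5′ to 3′. A match is a description of letters and not a bound site.
Hspa1a: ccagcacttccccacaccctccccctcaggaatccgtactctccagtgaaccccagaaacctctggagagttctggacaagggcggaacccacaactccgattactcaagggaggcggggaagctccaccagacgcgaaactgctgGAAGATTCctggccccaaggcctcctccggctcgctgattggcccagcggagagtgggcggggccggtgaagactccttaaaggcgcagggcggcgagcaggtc
Jun: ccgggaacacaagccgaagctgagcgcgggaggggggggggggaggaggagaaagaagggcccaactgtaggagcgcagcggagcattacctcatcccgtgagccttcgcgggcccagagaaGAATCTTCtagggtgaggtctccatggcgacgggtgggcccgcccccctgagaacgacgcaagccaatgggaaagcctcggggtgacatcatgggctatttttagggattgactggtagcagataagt
Dusp1: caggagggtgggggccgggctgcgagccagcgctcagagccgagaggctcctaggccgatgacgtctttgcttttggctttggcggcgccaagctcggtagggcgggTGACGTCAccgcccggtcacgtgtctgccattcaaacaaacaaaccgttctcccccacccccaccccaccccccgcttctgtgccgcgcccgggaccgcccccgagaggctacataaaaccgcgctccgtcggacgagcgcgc
Zfp36: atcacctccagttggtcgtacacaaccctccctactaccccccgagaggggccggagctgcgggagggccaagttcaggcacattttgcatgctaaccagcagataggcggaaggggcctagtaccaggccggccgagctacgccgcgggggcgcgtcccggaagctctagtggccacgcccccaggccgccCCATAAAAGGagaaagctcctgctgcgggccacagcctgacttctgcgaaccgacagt

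The slides were compared by a test, a measure unlike the cut of 1 used within slides. The limma test took in features detected on 2 or more control arrays, with a threshold of 0.05 on the Benjamini-Hochberg adjusted p. Of 26069, 961 (3.69%) passed, 138 higher and 823 lower on slide 2, and 433 carried a symbol. The smallest limma adjusted p was 0.0393, so all calls sat near the threshold, and leaving out any 1 of the 4 control arrays gave 0 calls (between 4989 and 6288 features with an unadjusted p under 0.05). The called features were dim, with a median level of -2.55 against -0.66 for all tested. Of the 961, 932 (97.0%) had the same sign between slides in the Irf2_AhcKO arrays, against 78.7% of all tested, and 429 were also called there. Detection followed the slides, since 737 genes were well above background on both control arrays of slide 1 and none of slide 2, and 48 the reverse. Slide, scan and individual mice cannot be told apart.

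Many calls rested on 1 slide at background, but calls were not confined to such features. A fit of only features well above background on all its arrays gave 1362 calls among 22755 (305 higher, 1057 lower). Of the 433 named genes called in the main fit, 162 were well above background on neither control array of the dimmer slide. Their difference is only a bound, computed as above from the slide means, and their order by fitted size is not read. These 162 passed the filter only through the brighter slide, so their adjusted p is not used as support. Pcsk6, a proprotein convertase, read -6.18, -6.70, -2.09 and -2.06, at least 5.91-fold higher on slide 2. Gabra5, a GABA receptor subunit, read -5.75, -6.65, -2.19 and -2.27, at least 5.33-fold higher. The bounds were lower for the other such increases named, at 2.49-fold for Gm1976, 2.29-fold for Il1a, 1.93-fold for Cylc1 and 1.90-fold for Irak3, and lowest for Gm53. Cplx4 (2.02 in controls, 1.52 in Irf2_AhcKO), Olfr944 (1.84 in controls) and Pank3 (1.62 and 1.37), which makes coenzyme A, were detected on both slides. Samd3 was detected on 1 array of slide 1 and both of slide 2.

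Among the decreases with the largest fitted size, Gm10536 was the only one detected on both slides, at -0.46, -0.23, -3.22 and -3.25, and it differed by -3.17 in Irf2_AhcKO. For the others slide 2 lay at background. The circadian repressor Bhlhe41 was at least 3.38-fold lower there, the oxygen sensor Egln3 at least 2.85-fold, the glucose transporter Slc2a6 at least 2.63-fold, Tlx1 at least 2.32-fold and the lactate receptor Hcar1 at least 2.11-fold. The bounds for Sned1, Gm5134, Gtsf1l, Adgra1, Ferd3l and Spn, the leukocyte sialophorin, lay between 1.79-fold for Adgra1 and 2.71-fold for Ferd3l.

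Of 29 stem cell markers tested, 1 was called, a share near the 3.69% of all features. It was Znrf3, at -1.22 (SE 0.13, limma adjusted p = 0.0431) and -0.68 in Irf2_AhcKO. Olfactory receptors gave 17 calls of 259 tested, 16 of them lower, and vomeronasal receptors 5 of 55, all lower. Lower calls in other lists took in Wnt4 (-1.68), Fzd8 (-1.56), Ephb6 (-0.95), Cdc6 (-1.11), Itgam (-1.24), Des (at least 1.62-fold), Eng (-1.07), Hoxa13 (-1.49) and Snap25 (-1.82). Higher calls were Apob (1.29), Guca2a (1.11), Tac1 (1.31), Dclk1 (0.98) and Il10rb (1.11). Apob, Guca2a, Tac1 and Dclk1 were the only calls among 25 enterocyte, 16 goblet, 20 enteroendocrine and 15 tuft genes tested. Beside 3.69% of all features, such single calls are not read as a result about these cell types. List medians went both ways, against -0.09 for all features. They were 0.73 for goblet, 0.64 for enteroendocrine, 0.58 for M cell, 0.51 for Paneth, 0.20 for tuft and -0.05 for enterocyte genes. The lowest were those of small lists, at -0.88 for red blood cell, -0.76 for pluripotency and germ line and -0.63 for nerve and glia genes.

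Between the groups, mean levels were close for most genes, while single genes differed. The correlation of group means across the 13793 genes seen on all 4 control arrays was 0.994, and 142 of those genes differed by over 1. In limma with the slide as a term, 25 of 25404 features (0.0984%) passed, and 0 with same-numbered arrays as a block (3293 with an unadjusted p under 0.05, against 2980 with the slide term). Lgr5 differed by -0.29 (SE 0.16, limma adjusted p = 0.502) and Irf2 by 0.27 (SE 0.12, limma adjusted p = 0.429), and whether the Irf2 probe lies in the deleted part was not checked here, so it does not test the labels. The 30 brightest genes differed by between -0.11 and 0.05 and the 29 stem cell markers by between -0.64 and 0.56. The 30 interferon pathway genes differed by between -2.29 and 3.23, and 1 of them was called, against 0.0984% of all features. All features differed by between -3.85 and 3.23.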

How the data were processed

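RNA from sorted Lgr5-high cells was measured on 8 1-colour Agilent arrays, 4 per group. Per the labels' protocols, 20 ng of RNA was amplified before labelling. Per the file headers, the deposited intensity values came from Agilent Feature Extraction 11.5.1.1, whose processed signal is background-corrected. A deposited table of processed intensity values for the series differed from the scanner signal by 1 constant per array, between 6.41 and 6.90, and served as an alternative for the brightest genes, of which it kept all 30.

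The log2 processed signal was scaled to the 75th percentile of each array over non-control spots. Spots of a probe were averaged and outlier spots left out. Of 55681 probes, 28331 had 1 symbol by accession and RefSeq (GRCm38.p6) names, 27350 had none and 0 several. A gene was given by its brightest probe. Repeated spots of 399 probes had median SDs of 0.0784 to 0.101 on the control arrays. The number of arrays limits the precision.

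Tests used limma 3.58.1 in R 4.3.3, with Benjamini-Hochberg adjustment at 0.05, on features well above background on at least 2 control arrays (slides) or 4 arrays (groups), and were tested on simulated data. Same-numbered arrays deviated together, with correlations of 0.459, 0.491, 0.518 and 0.533. They also share a slide, so these values cannot show that the numbers pair the samples. The within-slide differences of the 2 groups correlated at 0.06 on slide 1 and 0.29 on slide 2. Pairing by number does not come from the labels and was not tested, and the replicate block assumes it. Normexp used the median spot signal, since a mean signal was not used here.

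The text names the 30 brightest genes, 15 increases and 15 decreases within each slide with up to 5 bounds a direction, 12 slide differences a direction, all stem cell markers, and of other lists up to 6 brightest, up to 4 undetected and the most variable member. Other genes named, among them Alpi, Lct, Notch1, Efnb1, Ptprc, the ranking by dimmest probe and the remaining R-spondins, were picked with their values in view. Some genes that the rule takes in are not reported here. The members and lists were chosen with earlier results of these data known. Alternatives were other background correction, scaling, probe choice, filters, left-out arrays and the replicate block.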

Additional observations from a re-analysis of the deposited data

Results flagged for a closer look

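Among the genes named, 167 genes and 54 list means were examined for 1 control array standing apart, by the gap to the nearest array divided by the range of the 4 arrays. Chance flags about 1 in 20 groups, and 21 of the 26 genes that stood apart had been chosen for a large within-slide difference, so their flags are a description. No list mean stood apart. The array was replicate 1 in 7 genes, replicate 2 in 2, replicate 3 in 7 and replicate 4 in 10.

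On slide 1 the ratio of gap to range was 0.942 for Ptger1, 0.922 for Krtap10-10, 0.904 for Apol9a, 0.919 for Prl3b1, 0.917 for Xntrpc, 0.832 for Cetn1, 0.914 for Slc36a3, 0.874 for Mrgpra9 and 0.9002 for Rab27a. On slide 2 it was 0.922 for Sis, 0.952 for Xist, 0.989 for Was, 0.926 for Dhx36, 0.904 for Cds2, 0.8292 for Vmn2r65, 0.855 for Sema4b, 0.9 for Tmem41b, 0.959 for Cdc42, 0.862 for Zbtb25, 0.857 for Chil3 and 0.895 for Phlda2. The Y-linked genes Ddx3y and Eif2s3y had ratios of 0.956 and 0.891, both low on replicate 4. Of genes named for other reasons, the co-chaperone Dnajb1 had 0.92, the Wnt target Axin2 0.8997 and Ccdc138, one of the 30 brightest, 0.876.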

How the results depend on the processing

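Genes well above background on no control array numbered 4715, against 1302 by the weaker flag of a positive and significant signal and 10055 at or below the olfactory level. Of the 30 brightest genes, 13 stayed among the first 30 by the median of probes and 0 by the dimmest probe, a ranking added after seeing the data. With normexp, genes over 1 numbered 47 on slide 1 and 56 on slide 2, and 20 of the 60 named within-slide differences moved. The slide difference gave 961 calls, and 2300 (734 higher, 1566 lower) with normexp, 593 (70 and 523) with detected-probe scaling, 512 (49 and 463) with the median of probes, 9153 (3003 and 6150) with all 8 arrays, 0 with quantile (7232 at an unadjusted p under 0.05), 0 without a filter (8580) and 0 without each control array in turn. The group difference gave 25 calls, and 133 with normexp, 46 with features well above background on all arrays, 7 without a filter, 0 with the replicate block and 0 to 25 without 1 array. For the slide difference, features well above background on all arrays of the fit gave 1362 calls (305 higher, 1057 lower). No direction reversed among the results recomputed. The cause of these changes was not tested. Naming genes by a name column was not run. Leaving out an array within a slide is not possible with 2 control arrays.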
